A study of Macaca mulatta with 6 samples.

Results

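Serine synthesis enzymes and target genes of the transcription factor ATF4 were followed in RNA sequencing of 6 induced pluripotent stem cell (iPSC) lines of the rhesus monkey. The set named 10 genes: PHGDH, PSAT1, PSPH, SHMT2, MTHFD2, ASNS, CHAC1, TRIB3, DDIT4 and ATF4. Each was taken as the gene row whose symbol in the files equals its name, and 9 of the 10 were found among 30246 rows. No symbol stood on more than 1 row. PSPH, the phosphatase of the last step of serine synthesis, had no row under its symbol and is not analysed here. All 9 genes found were among the 13685 rows tested, which had at least 1 FPKM in at least 2 libraries. FPKM, the unit of every level given here, corrects fragment numbers for transcript length and library size, so levels of different genes can be compared per length.

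Cells make serine from a glycolytic intermediate in 3 steps, catalysed in turn by PHGDH, PSAT1 and PSPH. In mitochondria SHMT2 splits serine into glycine and a folate-bound carbon unit, which MTHFD2 oxidises for use in making purines and thymidylate. ATF4 is a transcription factor whose protein is made at a higher rate when stress kinases phosphorylate the translation factor eIF2. It switches on genes for amino acid synthesis and uptake, and its own mRNA level need not follow the amount or activity of its protein. ASNS makes asparagine, CHAC1 degrades glutathione, TRIB3 is a pseudokinase that restrains ATF4, and DDIT4 (REDD1) inhibits the growth kinase complex mTORC1.

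The lines were made from rhesus monkey fibroblasts and fall into 3 groups of 2 libraries: male naive, female naive and male primed. The titles name a sex for the female lines alone, and the other lines are called male here. Naive cells resemble the epiblast before implantation and primed cells the later epiblast. Both naive groups were grown in the medium labelled 6SM, with 15% serum replacement, N2 supplement, 4 ng/ml bFGF, 10 ng/ml human LIF, CHIR99021 (3 µM, a GSK3 inhibitor), PD0325901 (0.5 µM, a MEK inhibitor), SB203580 (10 µM, a p38 inhibitor) and SP600125 (10 µM, a JNK inhibitor). The naive medium was also supplemented with glutamine and nonessential amino acids, which include serine, glycine and asparagine in the usual formulation. The primed lines were grown in the medium labelled hESM, with 20% serum replacement and bFGF. Whether hESM also held glutamine or nonessential amino acids is not reported here, so the media cannot be compared in these. Feeder cells were removed before colonies were collected, and all 6 lines carry the stage label embryo. The labels do not tie lines to donors, and no primed line labelled female was analysed, so among female cells state cannot be compared. State and medium cannot be told apart, since naive and primed lines were grown in different media. In bulk RNA, fewer cells of a kind and less RNA per cell cannot be told apart.

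Depth was estimated from the deposited error bounds as effective fragments (the number of fragments that would give the stated error by counting alone). It came to 1754857 and 1478692 for the male naive libraries and 7607125 to 10013491 for the other 4, so low-expressed genes are measured least precisely in male naive lines. All 9 pluripotency markers examined reached 1 FPKM in each naive library, and 6 and 8 of 9 did so in the primed libraries. The summed FPKM of these markers was 986.2 to 1972.8 in naive and 361.4 to 445.7 in primed libraries. POU5F1 was the largest part of the naive sums, at 536 to 1160 FPKM, against 135 and 109 in primed libraries. NANOG was at 28.7 to 95.9 FPKM in naive and 0.933 and 2.09 in primed libraries. SOX2 went the other way, at 141 and 124 FPKM in primed and 85.3 to 122 in naive libraries. SALL4 overlapped, and the rest were lower in both primed libraries than in every naive one. Of 18 fibroblast and feeder markers, 10 reached 1 FPKM in primed 1 and 17 in primed 2, against 12 to 15 in naive libraries, with sums of 1272.5, 1858 and 1450.2 to 2378.5 FPKM. Neural markers summed to 693.3 and 894.8 FPKM in primed and 200.4 to 371.7 in naive libraries. Most of the primed sums was CRABP1, at 408 and 634 FPKM in primed and 10.9 to 60.7 in naive libraries. PAX6, MAP2, NCAM1 and ZNF521 were also higher in both primed libraries than in every naive one. TUBB3, OTX1 and NES overlapped, with NES at 165 and 170 FPKM in primed and 166 to 263 in naive libraries. The part of these other cells' genes in the differences below was not tested.

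The 9 genes spanned a wide range of levels. ATF4 (ENSMMUG00000004499, chromosome 10, 83447197 to 83449319 in the coordinates of the files, whose build is not given in the sources used here) was the most abundant, with a mean over all libraries above that of 98.4% of tested rows. PHGDH (ENSMMUG00000023089, chromosome 1, 122627323 to 122657563) and PSAT1 (ENSMMUG00000011868, chromosome 15, 86985314 to 87017640) followed at 97.1% and 96.6%. Then came ASNS (ENSMMUG00000019157, chromosome 3, 119411248 to 119430985) at 93.7%, SHMT2 (ENSMMUG00000021785, chromosome 11, 54298112 to 54302793) at 91.4% and DDIT4 (ENSMMUG00000012299, chromosome 9, 64719645 to 64721750) at 76.2%. CHAC1 (ENSMMUG00000014542, chromosome 7, 19345243 to 19348318) stood at 45% and TRIB3 (ENSMMUG00000012600, chromosome 10, 33636063 to 33646553) at 17.5%. In every library ATF4 was above the other 8 genes. PHGDH and PSAT1 changed places between libraries, and so did SHMT2 and DDIT4.

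The symbol MTHFD2 needs care. In the files it stands on ENSMMUG00000011383, a row of 1365 bp on chromosome 2 (107337411 to 107338776), at 2.90 to 6.28 FPKM. The RefSeq gene table of assembly T2T-MMU8v2.0 places MTHFD2 on chromosome 13, whereas the other 8 genes lie on the chromosome that RefSeq gives them. A table of gene identifiers pairs the symbol with ENSMMUG00000009739 (chromosome 13, 74422462 to 74439656, spanning 17194 bp), which the files leave without a symbol. That row was chosen after the data were seen and is given beside the first, and is not counted among the 9. Reads from near-identical copies may be split between such rows, and how the authors assigned them is not given in the sources used here.

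**Figure D1:**
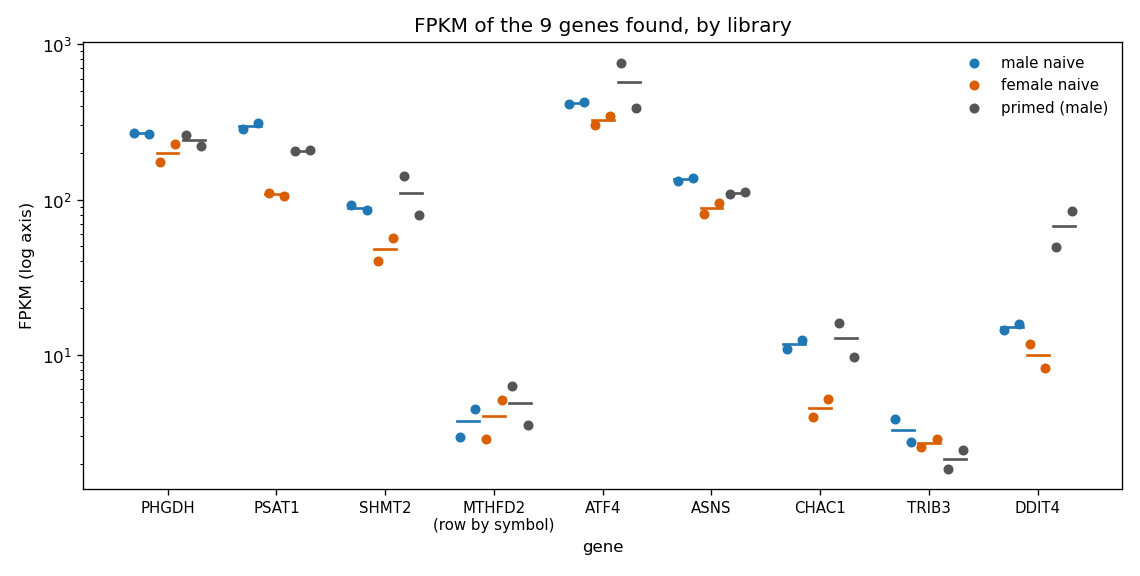
FPKM of the 9 genes (log axis) in each library, with points for libraries and a short bar for the mean of the 2 libraries of a group. DDIT4 sits at 8.22 to 15.8 in the 4 naive libraries and at 49.6 and 85.0 in the primed ones, and PSAT1 falls into 3 separate levels.

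Naive lines had less DDIT4 transcript than primed lines, while the serine enzymes, ASNS and ATF4 itself did not pass the test between these states. DDIT4 was the 1 gene of the 9 called in naive against primed lines, at a Benjamini-Hochberg adjusted p under 0.05 in limma, and 0 were called higher. At an unadjusted p under 0.05, 3 of the 9 were lower and 0 higher, where 4235 of the 13685 rows passed in either direction. Over all tested rows 11.3% were called, 6.72% higher and 4.59% lower, or 920 and 628 rows (741 and 739 after quantile normalization, 693 and 878 after upper-quartile scaling), so 1 of 9 is near the background. The 9 genes had a median difference of -0.26 on the log2(FPKM + 1) scale, with 8 negative and 1 positive, against a median of 0.04 over all tested rows.

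ATF4 was at 413 and 425 FPKM in the male naive pair, 304 and 346 in the female pair and 760 and 386 in the primed pair. The naive and primed groups overlapped, since primed 2 lay within the naive range and primed 1 far above it. The log2 difference was -0.55 (SE 0.26, adjusted p = 0.207), with a 95% confidence interval of -1.18 to 0.08. The call depended on the primed libraries: without primed 2 ATF4 was lower in naive lines by the test (-1.04, adjusted p = 0.0201), and without primed 1 the difference was -0.07 (adjusted p = 0.756).

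PHGDH, which commits carbon to serine synthesis, was at 270 and 265 FPKM in the male naive pair, 175 and 226 in the female pair and 262 and 222 in the primed pair. Its log2 difference of -0.06 (SE 0.14, adjusted p = 0.791) had an interval of -0.40 to 0.28. The primed libraries lay within the range of the 4 naive libraries, below both male ones, with primed 2 just under the higher female one.

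PSAT1, the aminotransferase of the middle step, was at 287 and 310 FPKM in the male naive pair, 110 and 106 in the female pair and 204 and 208 in the primed pair. The primed libraries thus lay between the 2 naive groups, and libraries of a group lay close together. Averaged over both naive groups the log2 difference was -0.20 (SE 0.10, adjusted p = 0.218), an average of a higher and a lower group. Without both male naive libraries it was -0.93 (adjusted p = 0.0349), and with quantile normalization -0.42 (adjusted p = 0.037).

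SHMT2, the mitochondrial serine hydroxymethyltransferase, was at 92.3 and 85.5 FPKM in the male naive pair, 40.1 and 56.2 in the female pair and 142 and 79.2 in the primed pair. Primed 1 was the highest of the 6 and primed 2 lay just under the male naive libraries. The log2 difference was -0.70 (SE 0.26, adjusted p = 0.126), and it passed the test without primed 2 (-1.12, adjusted p = 0.0457). Without primed 1 it was -0.28 (adjusted p = 0.451).

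The MTHFD2 row on chromosome 2 was at 2.96 and 4.52 FPKM in the male naive pair, 2.90 and 5.15 in the female pair and 6.28 and 3.53 in the primed pair. It rested on 7 and 9 effective fragments in male naive libraries and 32 to 84 elsewhere (log2 difference -0.26, SE 0.32, adjusted p = 0.617). The row on chromosome 13 was at 34.0 and 31.2, 23.7 and 34.4, and 45.7 and 22.2 FPKM in the same order. For that row the log2 difference was -0.06 (SE 0.30, adjusted p = 0.909). On either row primed 1 was the highest library of the 6, and no difference was detectable between the states. Primed 2 lay below the middle of the naive range on the chromosome 2 row and below every naive library on the chromosome 13 row.

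ASNS was at 131 and 138 FPKM in the male naive pair, 81.4 and 94.9 in the female pair and 109 and 112 in the primed pair. As for PSAT1, primed lines lay between the naive groups (log2 difference -0.02, SE 0.11, adjusted p = 0.915, interval -0.28 to 0.24).

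CHAC1 was at 10.99 and 12.4 FPKM in the male naive pair, 3.98 and 5.18 in the female pair and 16.0 and 9.76 in the primed pair. The female naive libraries were the lowest 2 of the 6. The log2 difference between states was -0.69 (SE 0.24, adjusted p = 0.11). It was -0.36 without primed 1 (adjusted p = 0.38) and -1.02 without primed 2 (adjusted p = 0.062).

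TRIB3 was at 3.87 and 2.76 FPKM in the male naive pair, 2.57 and 2.87 in the female pair and 1.85 and 2.45 in the primed pair. It was the 1 gene of the set with every naive library above both primed ones, a pattern that 18.9% of tested rows showed and that was absent after upper-quartile scaling. Its log2 difference of 0.35 (SE 0.23, adjusted p = 0.346) did not pass the test, on 6 and 10 effective fragments in male naive libraries.

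DDIT4 was at 14.5 and 15.8 FPKM in the male naive pair, 11.8 and 8.22 in the female pair and 49.6 and 85.0 in the primed pair. Both primed libraries lay above every naive library, and this was the 1 gene of the set lower in all naive libraries, a pattern shown by 15.9% of tested rows. After upper-quartile scaling ATF4 showed it too, and 22.2% of tested rows did. The mean was 5.35-fold higher in primed than in naive lines. With an adjusted p of 0.00968, DDIT4 fell by 2.32 (SE 0.25) on the log2(FPKM + 1) scale, which put it at rank 50 of 13685 among the lowest differences. It rested on 60 to 248 effective fragments in naive and 1259.1 and 1690 in primed libraries. Of the primed libraries, primed 2 had more fibroblast markers at 1 FPKM or more and also more DDIT4. The naive libraries, with 12 to 15 of these 18 markers at that level, had DDIT4 at 8.22 to 15.8 FPKM. A link between the markers and DDIT4 was not tested. Without primed 2 the difference was -1.93 (adjusted p = 0.0227).

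**Figure D2:**
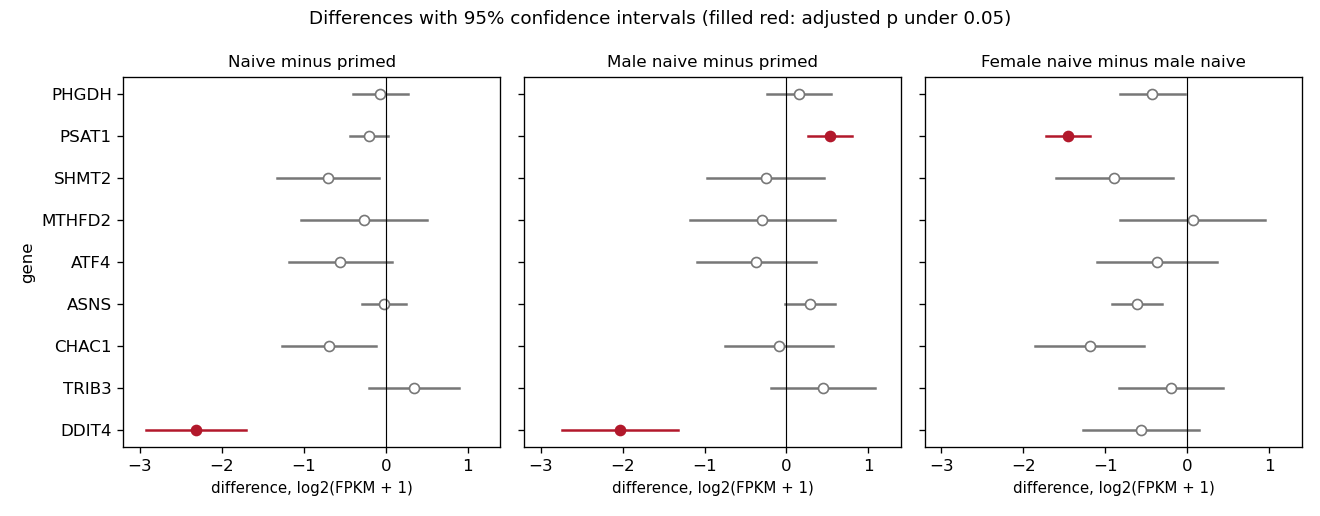
Differences on the log2(FPKM + 1) scale (horizontal axis) for the 9 genes in the 3 comparisons, with points for estimates and lines for 95% confidence intervals. Filled red points mark an adjusted p under 0.05: DDIT4 at -2.32 and -2.03, and PSAT1 at 0.53 and -1.46.

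Within males, naive lines had less DDIT4 than primed lines. They had slightly more PSAT1, a call that was lost under all 14 alternatives. In this comparison state, medium and depth cannot be told apart, since the male naive libraries are also the shallowest. Of the 9 genes 1 was called higher and 1 lower, against 5.39% of all tested rows, 3.97% higher and 1.42% lower, or 543 and 195 rows (391 and 357 after upper-quartile scaling, 418 and 255 after median-of-ratios scaling, 399 and 294 after quantile normalization). DDIT4, 4.44-fold higher in primed than in male naive lines by mean FPKM, fell by 2.03 (SE 0.29, adjusted p = 0.0199). Removing naive male 1 ended the call (-1.97, adjusted p = 0.119), as did removing naive male 2 (-2.09, adjusted p = 0.111), with little change in size.

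PSAT1 was 1.45-fold higher in male naive than in primed lines. Its log2 difference of 0.53 (SE 0.11, adjusted p = 0.0499) lay just inside the threshold. This call was lost under all 14 alternatives tried, with differences of 0.24 to 0.59 and adjusted p from 0.0521 to 0.258, including the removal of each of the 6 libraries. The direction was positive in each of them.

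The other 7 genes were not called in males. Male naive libraries lay above both primed ones for 4 of 9 genes (PHGDH, PSAT1, ASNS and TRIB3), against 34.8% of tested rows, and below them for 1 of 9 (DDIT4), against 21.6%. With upper-quartile scaling 2 lay above (PSAT1 and ASNS, against 24.2%) and 2 below (DDIT4 and ATF4, against 31.6%), and with median-of-ratios scaling 3 lay above (PSAT1, ASNS and TRIB3, against 27.4%). ASNS was higher in both male naive libraries than in both primed ones (log2 difference 0.28, SE 0.13, adjusted p = 0.219), and PHGDH likewise (0.15, SE 0.16, adjusted p = 0.61), although PHGDH turned to -0.02 with upper-quartile scaling and -0.13 with quantile normalization. SHMT2 was at -0.26, CHAC1 at -0.09 and ATF4 at -0.37 (SE 0.30, adjusted p = 0.485). Without primed 1 these 3 became positive, at 0.16, 0.24 and 0.12, and without primed 2 ATF4 was called at -0.86 (adjusted p = 0.0375). TRIB3 was at 0.45 (SE 0.26, adjusted p = 0.335).

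Female naive lines had lower levels of most of the genes than male naive lines in the same medium, but PSAT1 alone of the 9 passed the test. For 7 of 9 genes (PHGDH, PSAT1, SHMT2, ASNS, CHAC1, DDIT4 and ATF4) both female libraries lay below both male ones, a pattern shown by 37.6% of tested rows as deposited and 26.2% after median-of-ratios scaling. For 0 of 9 both female libraries lay above, against 19.4% of tested rows. The same 7 genes showed it under the 3 library scalings tried on FPKM. Called genes numbered 1 lower and 0 higher of 9 (5 and 0 at an unadjusted p under 0.05, where 2963 of the 13685 rows passed in either direction), against 3.31% of all tested rows called, 0.76% higher and 2.55% lower, or 104 and 349 rows (114 and 219 after median-of-ratios scaling, 118 and 223 after quantile normalization). The median difference of the 9 was -0.57 on the log2 scale, and that of all tested rows was -0.10, which median-of-ratios scaling moved to 0.03.

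PSAT1 was 2.76-fold higher in male than in female naive lines, at 298 ± 16.6 against 108 ± 3.32 FPKM (SD, n = 2). It fell by 1.46 in female relative to male naive lines (SE 0.11, adjusted p = 0.00345), and by 1.31 to 1.41 under the 4 other scalings (adjusted p from 0.00404 to 0.00542). Without naive male 1 the adjusted p was 0.0521 and without naive male 2 it was 0.0686, at differences of -1.51 and -1.40. PSAT1 rested on 975.4 to 2327.8 effective fragments in each naive library.

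CHAC1, at 11.7 ± 1.01 against 4.58 ± 0.848 FPKM (SD, n = 2), was next in size. Its log2 difference of -1.19 (SE 0.27, adjusted p = 0.0774) did not pass the test. SHMT2 was at -0.89 (SE 0.30, adjusted p = 0.161) and ASNS, the next smallest p after PSAT1, at -0.61 (SE 0.13, adjusted p = 0.0614). DDIT4 (-0.57, adjusted p = 0.324), PHGDH (-0.43, adjusted p = 0.202), ATF4 (-0.37, adjusted p = 0.534) and TRIB3 (-0.20, adjusted p = 0.707) were smaller. Sex, line and depth cannot be told apart here, because the 2 male naive libraries are also the shallowest.

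Levels within a library do not depend on how libraries are scaled, and there PSAT1 parted from its pathway neighbour PHGDH. The ratio of PSAT1 to PHGDH in FPKM was 1.06 and 1.17 in the male naive pair, 0.63 and 0.467 in the female pair and 0.779 and 0.937 in the primed pair, so the 3 groups did not overlap. PSAT1 to ASNS gave 2.18 and 2.25, 1.36 and 1.11, and 1.87 and 1.86 in the same order, again without overlap. PSAT1 to ATF4 gave 0.694 and 0.73, 0.363 and 0.305, and 0.268 and 0.54, and there the primed and female naive libraries overlapped. DDIT4 to ATF4 gave 0.035 and 0.0373 in the male naive pair, 0.0389 and 0.0238 in the female pair and 0.0652 and 0.22 in the primed pair. CHAC1 to ATF4 parted the 3 groups in the same order as PSAT1 to PHGDH, at 0.0266 and 0.0292, 0.0131 and 0.015, and 0.0211 and 0.0253. The ratios of PHGDH, SHMT2 and ASNS to ATF4 overlapped between groups. With 2 libraries a group these ratios are given as a description. The share of all gene pairs that part the 3 groups was not computed.

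The 2 primed libraries differed from each other in several of the genes by more than counting error. The deposited bounds, which lie 2 SD either side of FPKM, did not overlap between primed 1 and primed 2 for 6 of 9 genes (PHGDH, SHMT2, MTHFD2, CHAC1, DDIT4 and ATF4), compared with 39.2% of tested rows. Primed 1 was 1.97-fold higher in ATF4, 1.80-fold in SHMT2 and 1.64-fold in CHAC1, and primed 2 was 1.72-fold higher in DDIT4. PSAT1 and ASNS were alike in both, at ratios of primed 1 to primed 2 of 0.98 and 0.977. The bounds of the female naive libraries were apart for 5 of 9 genes (30.6% of tested rows) and those of the shallower male naive libraries for 0 of 9 (1.27%). Bounds narrow as fragment number rises, so they part more easily for abundant genes. The shares over all tested rows are therefore not matched to these genes by level.

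**Figure D3:**
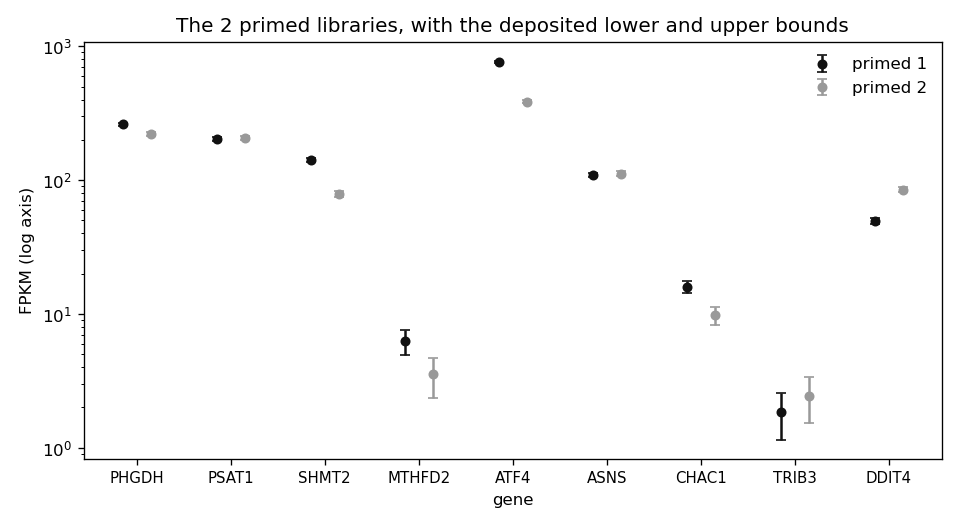
FPKM (log axis) of the 9 genes in primed 1 and primed 2, with error bars for the deposited lower and upper bounds. ATF4, SHMT2 and CHAC1 are higher in primed 1 and DDIT4 is higher in primed 2, while PSAT1 and ASNS nearly coincide.

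Around the 9 genes, 8 lists of related genes were described by their calls and medians. Together they held 166 tested genes, of which 16 were called in naive against primed lines, or 9.64% against 11.3% of all rows. In female against male naive lines 5 were called (3.01% against 3.31%), and in male naive against primed lines 3 (1.81% against 5.39%). These calls depended on single libraries: the 16 became 1 when either male naive library was removed, 3 when either female one was, 4 when primed 1 was and 15 when primed 2 was. The 5 became 0 on removing either male naive library or naive female 2, and 1 on removing naive female 1. The 3 became 0 without either male naive library and 8 without primed 2.

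Among serine, glycine and folate enzymes 2 of 35 rose and 1 fell in naive against primed lines (median 0.19). SLC25A32, the mitochondrial folate carrier, rose by 0.83 (SE 0.13, adjusted p = 0.0174), from 12.5 and 13.5 FPKM in primed to between 22.9 and 25.3 in naive libraries. It also rose in males alone (0.87, SE 0.15, adjusted p = 0.0296). MTHFD1L, which completes the mitochondrial folate route to formate, rose by 0.68 (SE 0.14, adjusted p = 0.0362), from 33.2 and 24.9 to between 45.6 and 47.7 FPKM. GLDC, the glycine-cleaving decarboxylase, fell by 1.11 (SE 0.17, adjusted p = 0.0166), from 42.1 and 44.5 FPKM in primed to 28.5 and 27.0 in the male and 16.2 and 11.3 in the female naive pair. MAT2A, which makes S-adenosylmethionine, was at 0.97 (adjusted p = 0.0522). In female against male naive lines 0 rose and 1 fell of 35 (0 and 5 at an unadjusted p under 0.05). The 1 was MTHFD1, the cytosolic folate enzyme, at 119 and 112 FPKM in male and 58.7 and 33.4 in female naive libraries (-1.36, SE 0.25, adjusted p = 0.0477).

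Other ATF4 target genes went both ways between states: 4 of 35 rose and 2 fell in naive lines (median 0.03). The rises were GDF15, a stress-induced secreted factor (1.33, SE 0.27, adjusted p = 0.0337), SQSTM1, an autophagy receptor (0.79, SE 0.15), XPOT, the tRNA exporter (0.74, SE 0.15), and SLC7A5, a leucine transporter named after its values were seen (1.32, SE 0.28). GDF15 was at 5.46 to 10.98 FPKM in naive and 1.69 and 3.47 in primed libraries. The falls were SLC1A4 and STC2, and for both the male naive libraries were near the primed ones. SLC1A4, a transporter of serine and alanine, was at 15.8 and 22.4 FPKM in the male naive pair, 1.49 and 1.37 in the female pair and 28.4 and 14.0 in the primed pair. STC2, a secreted glycoprotein, was at 7.87 and 8.62, 1.598 and 2.01, and 7.23 and 9.45 FPKM in the same order.

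In female against male naive lines 4 of these 35 genes fell and 0 rose (7 and 1 at an unadjusted p under 0.05, median -0.23), where 2.55% of all rows were called lower. Over all 8 lists the 5 calls became 2 with upper-quartile, median-of-ratios or quantile scaling, and 0 without either male naive library. SLC1A4 fell by 3.03 (SE 0.35, adjusted p = 0.0114), STC2 by 1.73 (SE 0.23, adjusted p = 0.0186) and PCK2, the mitochondrial PEP carboxykinase, by 1.07 (SE 0.18, adjusted p = 0.0359). The fourth, named after its values were seen, was EIF4EBP1, a translation repressor (-1.27, SE 0.22, adjusted p = 0.0383). In males 0 of 35 were called (8 higher and 2 lower at an unadjusted p under 0.05), with SLC1A4 at -0.09 and STC2 at -0.01 (SE 0.35 and 0.23).

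**Figure D4:**
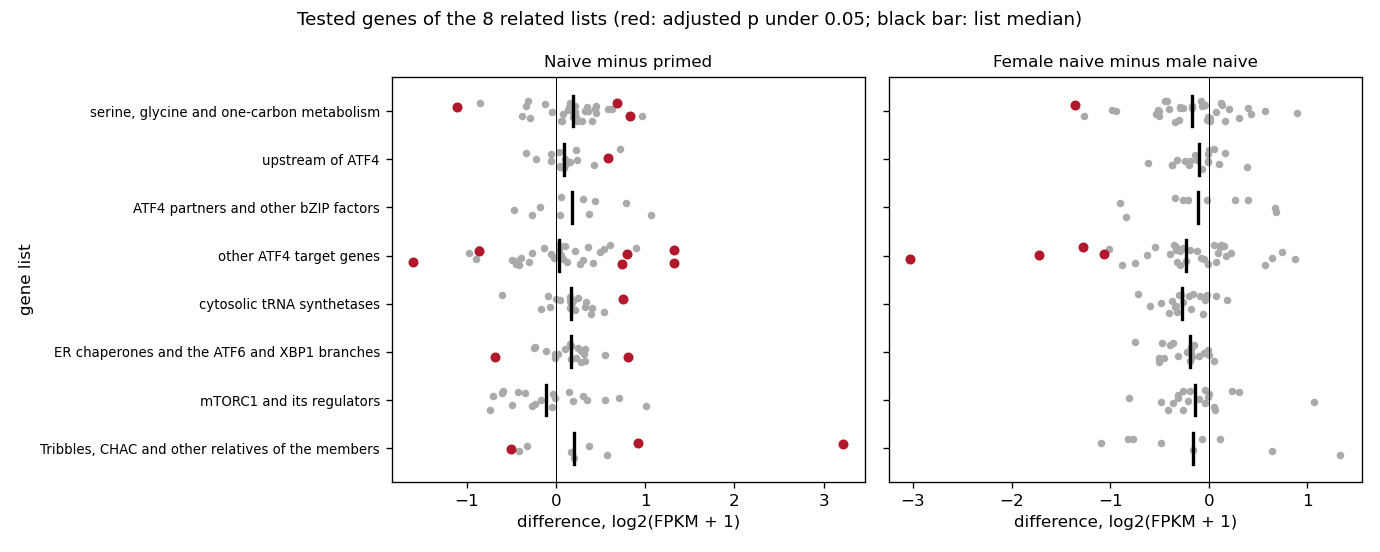
Differences on the log2(FPKM + 1) scale for the tested genes of the 8 related lists (rows), naive minus primed on the left and female minus male naive on the right, with red points for an adjusted p under 0.05 and black bars for list medians. On the right the called points are all negative, and SLC1A4 lies lowest at -3.03.

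Upstream of ATF4, 1 of 18 genes rose between states, EIF2S1 (0.58, SE 0.12, adjusted p = 0.0346), which encodes the eIF2 subunit that stress kinases phosphorylate. EIF2AK3, the kinase PERK, was at 6.26 to 7.22 FPKM in naive and 2.70 and 4.95 in primed libraries (0.72, adjusted p = 0.104). Of 10 partners and other bZIP factors 0 were called (1 higher and 1 lower at an unadjusted p under 0.05). DDIT3 (CHOP), a stress-induced partner of ATF4, was at 4.58 to 6.50 FPKM in naive and 3.66 and 4.45 in primed libraries (0.37, adjusted p = 0.219). Of 20 cytosolic tRNA synthetases 1 rose, RARS for arginine (0.75, SE 0.11, adjusted p = 0.0144), and QARS for glutamine was at -0.61 (adjusted p = 0.0537).

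ER chaperones and the other branches of the unfolded protein response had 1 rise and 1 fall among 20, DNAJB9 (0.80, SE 0.19, adjusted p = 0.0478) and ATF6B (-0.68, SE 0.14, adjusted p = 0.0349). HSPA5 (BiP), the main ER chaperone, was at 300 to 430 FPKM in naive and 193 and 312 in primed libraries (0.55, adjusted p = 0.116). Among 20 genes of mTORC1 and its regulators, the pathway that DDIT4 restrains, 0 were called (2 higher and 5 lower at an unadjusted p under 0.05, median -0.11). DDIT4L, the paralog of DDIT4, went the other way in value, at 6.89 and 4.11 FPKM in the male naive pair, 2.03 and 3.34 in the female pair and 1.22 and 1.55 in the primed pair (1.01, SE 0.28, adjusted p = 0.0683).

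Among relatives and regulators of the set 2 of 9 rose and 1 fell. MYC, which is known to promote transcription of serine and folate enzymes, rose by 3.22 (SE 0.34, adjusted p = 0.00966), from 1.22 and 3.70 FPKM in primed to 18.6 and 17.4 in the male and 37.0 and 59.4 in the female naive pair. TRIB1, a relative of TRIB3, rose by 0.92 (SE 0.18, adjusted p = 0.0314), at 10.0 to 13.8 FPKM in naive and 5.49 in both primed libraries. GLUL, glutamine synthetase, fell by 0.50 (SE 0.10, adjusted p = 0.0337).

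The 5 genes whose levels over the 6 libraries were most like those of PSAT1, among 8859 with a symbol and a mean of 5 FPKM or more, were WIF1, GPT2, CCDC77, C21ORF2 and VPS13A, with Pearson's r of 0.99 each on the log2(FPKM + 1) scale. Over 6 libraries in 3 groups such values describe a shared order of groups, male naive highest and female naive lowest. GPT2, for instance, was at 25.8 and 26.1 FPKM in the male naive pair, 15.8 and 14.3 in the female pair and 22.01 and 21.5 in the primed pair.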

How the data were processed

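The deposited values are FPKM, its bounds and a status for each gene row, computed by the authors within each library, in the layout of Cufflinks tracking tables per the file headers. The submitters' processing notes name TopHat 1.3.0. Build, annotation and quantifier version: not given in the sources used here. State, library numbers and the female label came from the titles. The titles name no sex for the naive lines called male here or for the primed lines. To get effective fragments, FPKM was doubled, divided by the upper bound's excess over FPKM and squared; they cover counting error only.

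Rows with at least 1 FPKM in 2 libraries and no failed status were tested (13685). The model was limma 3.58.1 (R 4.3.3) on log2(FPKM + 1), a scale that understates changes of low genes, with a mean per group, a trended prior, two-sided tests and Benjamini-Hochberg adjustment over all rows at 0.05. Naive against primed averages the 2 naive groups. The comparisons share libraries. Alternatives were a smaller pseudocount, no filter, 4 other scalings, the replicate block, other sample sets and leaving out each library. The fit was tested on simulated data. Separate donors are not stated, so each p-value measures only how these lines vary.

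The 10 genes and the lists were chosen with earlier results of these data known. Named list genes were up to 4 per list by p between states whose highest group mean reached 2 FPKM, up to 3 called in each other comparison, and 5 genes most correlated with PSAT1. List symbols came from the files, or from the identifier table for 728 unnamed rows, with 15769 identifiers found there. Some list genes are shared between lists. Promoter sequences were not used here.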

Additional observations from a re-analysis of the deposited data

Results flagged for a closer look

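PSAT1 differed between the naive groups: its naive against primed difference was 1.46 lower on the log2(FPKM + 1) scale in female than in male naive lines (-1.457, limma adjusted p = 0.00345, both female libraries below both male ones). Both differences are taken from the same 2 male primed lines, so this is the female against male naive comparison itself. Sex, line and depth cannot be told apart in it. None of the 9 genes, nor the MTHFD2 row on chromosome 13, had a library standing apart from the other 3 naive libraries by Dixon's criterion. Where the naive groups differ, their difference widens the range that the criterion uses, so it says little about single libraries.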

How the results depend on the processing

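DDIT4 in naive against primed lines kept its direction and call under all 15 alternatives (-2.70 to -1.93, adjusted p from 0.00906 to 0.0451). PSAT1 in female against male naive lines kept its call in 12 of 14, all but the removal of either male naive library. Of the values per gene row and alternative, 386 kept direction and side of the threshold, 18 lost the call, 5 gained one and 21 changed sign. For the values that are not explained by fewer samples or by more genes tested, the cause was not tested. Called genes in naive against primed lines numbered 1548 over all rows, 1 of the 9 and 16 in the lists. With no filter these counts were 941 for all rows and 7 for the lists, with the replicate block 812 and 5, without both male naive libraries 625 and 5 (2 of the 9), and with sex ignored 250 and 3. Quantile normalization called 2 of the 9. Leaving out 1 library gave 177 to 1081 over all rows, 1 to 3 of the 9 and 1 to 15 in the lists. In male naive against primed lines 738 rows, 2 of the 9 and 3 list genes were called. All rows numbered 400 with no filter, 373 with the replicate block and 348 with the compared groups alone, and 51 to 626 with 1 library left out. Of the 9, 1 was called with a pseudocount of 0.1, no filter, upper-quartile, median-of-ratios or quantile scaling, scaling to rows of 300 bp or more, the replicate block and the compared groups alone, and 0 to 2 with 1 library left out. List genes numbered 5 with upper-quartile and quantile scaling and 0 to 8 with 1 library left out. In female against male naive lines 453 rows, 1 of the 9 and 5 list genes were called. All rows numbered 268 with no filter, 207 with the replicate block and 41 to 523 with 1 library left out, which called 0 to 1 of the 9 and 0 to 6 list genes. List genes numbered 1 with no filter, and 2 with upper-quartile, median-of-ratios and quantile scaling and with the replicate block. Library numbers were not taken to pair the samples. Differences between replicates correlated at -0.06, -0.05 and -0.263 between groups, which cannot exclude a donor or batch shared by number. Under the replicate block DDIT4 was called (adjusted p = 0.0222, and 0.047 in males), PSAT1 was called between naive groups (adjusted p = 0.0189) and not in males (0.102). Signs changed as follows. In naive against primed lines without naive female 1, PHGDH was 0.028, ASNS 0.034 and MTHFD2 on chromosome 13 0.067. Without primed 1, PHGDH was 0.055, MTHFD2 0.078 and its chromosome 13 row 0.442. In male naive against primed lines PHGDH was -0.019 with upper-quartile and -0.133 with quantile scaling. The chromosome 13 row was -0.134 with upper-quartile, -0.08 with median-of-ratios, -0.14 with quantile and -0.006 with 300 bp scaling, -0.029 without naive male 1 and -0.475 without primed 2. Without primed 1, SHMT2 was 0.163, MTHFD2 0.045, CHAC1 0.237 and ATF4 0.119. In female against male naive lines removing naive male 1 put MTHFD2 at -0.173 and removing naive female 2 put it at -0.262, and its chromosome 13 row was 0.075 without naive female 1. Adding rows that share a symbol was not run, since no gene of the set has more than 1 row. Depth limits TRIB3 and MTHFD2 most, at 6 to 10 effective fragments in male naive libraries. With 1 library left out, the other ends of the ranges of the values that changed sign were, in naive against primed lines, -0.182 for PHGDH, -0.605 for MTHFD2, -0.076 for ASNS and -0.568 for the chromosome 13 row. In male naive against primed lines they were -0.674 for SHMT2, -0.639 for MTHFD2, -0.424 for CHAC1, -0.857 for ATF4 and 0.535 for the chromosome 13 row, and between naive groups 0.396 for MTHFD2 and -0.445 for the chromosome 13 row.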
